A study of Mus musculus with 6 samples.

Results

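The genes of DNA replication and S phase were examined in early thymic progenitors with and without the transcription factor Tcf1. The 51 genes were chosen by name and function and not by a measured value, though with earlier results of these data known. Each was read from a single probe set of the Affymetrix mouse expression array, the one with the highest average level among those annotated to that symbol alone. This gave 50 of the 51 genes a value, out of 18193 genes in the table, and Chaf1a was not analysed here. The study compared progenitors from thymi of 10-week-old C57Bl/6 mice, on 3 arrays of Tcf1-/- and 3 arrays of Tcf1-/+ cells that the titles call biological replicates. The cells were Lin-CD44+CD25-kit+, and their RNA, a few nanograms, was amplified before hybridization. One label field calls the second group wild type where the titles say Tcf1-/+, and the name in the titles is used here. No label says how many mice gave the cells of an array, how the allele was made or in which cells Tcf1 was lost. The p-values therefore measure the spread between these arrays.

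Replication starts at origins, where the origin recognition complex, Cdc6 and Cdt1 load the Mcm2 to Mcm7 helicase in G1 phase. Kinases then convert the loaded helicase into moving forks that hold Cdc45, the GINS complex, the sliding clamp and the DNA polymerases. Most of these genes are classical targets of the E2F transcription factors and are transcribed as cells pass from G1 into S phase, so their RNA is widely used as a measure of cycling. Early thymic progenitors, the first T-lineage cells of the thymus, divide several times before they commit to the T-cell fate.

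Values are deposited log2 levels per probe set, and a difference is always taken on that scale as Tcf1-/- minus Tcf1-/+, so that negative values are lower in Tcf1-/-. The level of background was taken as 5.21, the 95th percentile of the 27 control probe sets for bacterial transcripts. All 7 defining genes of the sorted cells (Kit, Cd44, Ptprc, Flt3, Notch1, Cd34 and Ccr9) lay above it on every array. Of these, Flt3 and Cd34 were lower on all 3 Tcf1-/- arrays than on every Tcf1-/+ array, an order found in 4.94% of all genes. They differed by -1.53 (SE 0.42) and -1.24 (SE 0.36), and Kit differed by -1.36 (SE 0.71), or -0.58 without Tcf1-/- replicate 2. None of these passed the adjusted test, and the part of progenitor markers in the results on replication genes was not tested. Il2ra, which encodes the CD25 that the gate selects against, was also above it, between 9.22 and 10.97. Tcf7, which encodes Tcf1, was not analysed here, so the genotypes were not checked on the targeted gene. Tcf1-/- replicate 2 stood apart. Over all probe sets it correlated with the other arrays at 0.87 to 0.893, and the other arrays among themselves at 0.913 to 0.933. Results are therefore given with and without it.

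The replication genes were clearly expressed in both genotypes, and no difference between the genotypes passed the test for any of them. Of the 50 members, 46 lay above background on all 6 arrays, and none had a genotype mean under it. Limma called 0 of the 50 at an adjusted p of 0.05, as it called 0 (0%) of the 45037 probe sets, and the lowest adjusted p of a member was 0.605. Before adjustment, 3 members had a p under 0.05, E2f2, Pold1 and Uhrf1. Over all genes 6.78% reached this level, a share close to 3 of 50. Means were lower in Tcf1-/- for 37 members and higher for 13. A lower mean was found for 74.0% of the members, against 45.7% of all genes. The median difference of the members was -0.25, against 0.04 over all genes, and the members' median level varied between arrays with an SD of 0.37.

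This lean towards lower values moved with single Tcf1-/- arrays, of which Tcf1-/- replicate 2 was the lowest. The median of the members, each taken relative to its own mean over the 6 arrays, was -0.66 on that array. It was 0.25 and -0.02 on Tcf1-/- replicates 1 and 3, and -0.01, 0.16 and 0.45 on the 3 Tcf1-/+ arrays. Replicate 1 of Tcf1-/- thus lay within the range of the Tcf1-/+ arrays, and replicate 3 lay beside the lowest of them. Replicate 2 was the lowest of the 6 arrays for 28 of the 50 members, or 56.0%, whereas it was the lowest for 19.3% of all genes. It was the highest array for 4 members, Cdc45, Rfc4, Pola2 and Tk1. At the other end, Tcf1-/+ replicate 3 was the highest array for 19 members and the lowest for 0. Without Tcf1-/- replicate 2, 28 of the 50 members (56.0%) had a lower mean, against 49.1% of all genes, and the median difference was -0.06. This array was also set apart by the ends of the control transcript Tfrc, whose 3' minus 5' level was 0.05 there and -1.08 to -0.62 on the other 5 arrays. For Gapdh the same measure was 2.78 there and 1.74 to 2.89 elsewhere. The part of RNA quality in the low values of this array was not tested. The arrays also differed in the mean level of Y-linked genes, at 5.0, 8.49 and 8.42 in Tcf1-/- and at 4.07, 9.39 and 4.01 in Tcf1-/+. With that level as a covariate 33 members were lower and their median difference was -0.15.

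**Figure D1:**
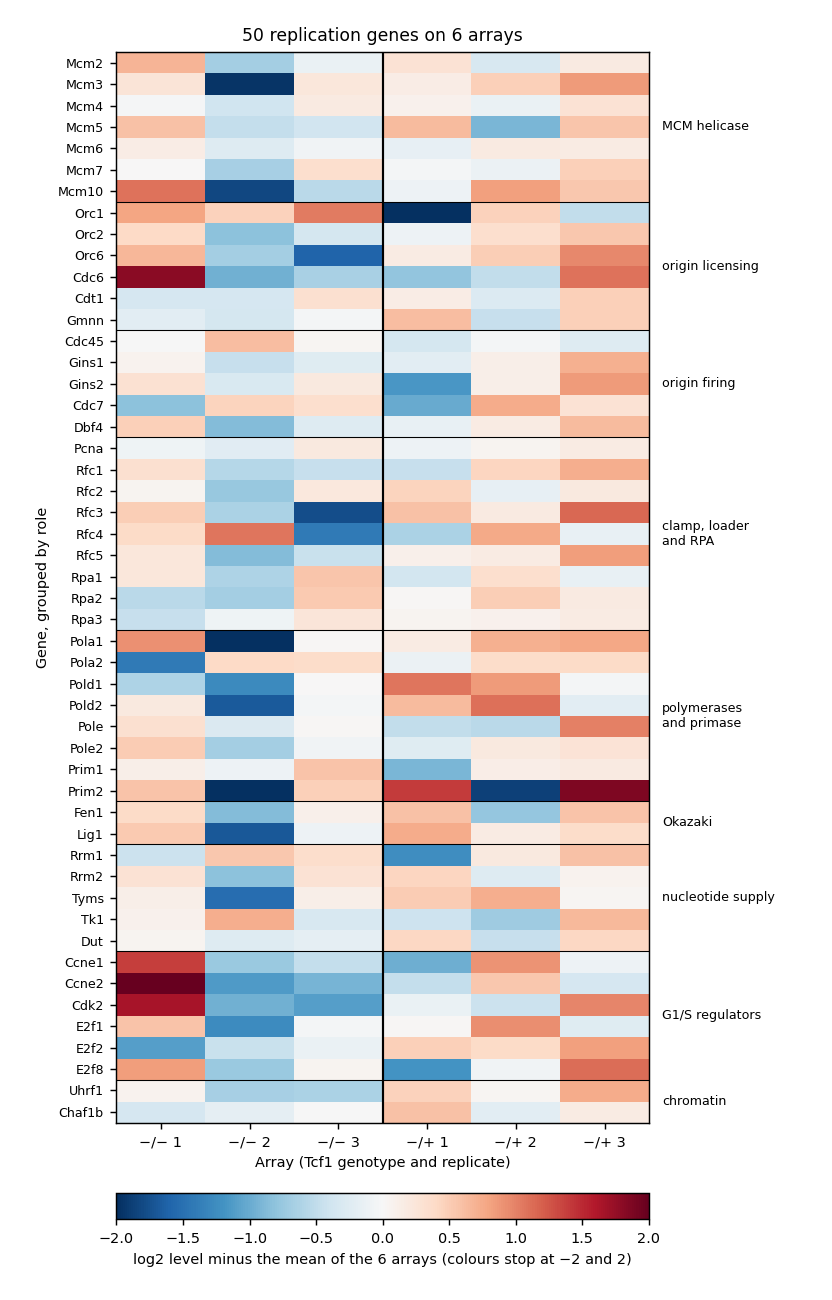
Log2 level of each of the 50 replication genes on each of the 6 arrays, minus that gene's mean over the 6 arrays, with genes grouped by role and genotypes divided by the vertical line. Blue runs down the column of Tcf1-/- replicate 2, which was the lowest array for 28 genes, while replicates 1 and 3 of Tcf1-/- are mixed in colour.

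Arrays of the 2 genotypes overlapped for 47 of the 50 members. E2f2 was lower on all 3 Tcf1-/- arrays than on every Tcf1-/+ array, where 4.94% of all genes showed that order. Orc1 and Cdc45 were higher on all of them, an order found in 7.22% of all genes. So 1 member of 50 lay wholly lower and 2 wholly higher, fewer than those shares of 50 genes would give. Without Tcf1-/- replicate 2 the same 3 genes did not overlap, beside 9.81% of all genes wholly lower and 11.1% wholly higher among these 5 arrays. The count of wholly lower members depended on which array was set aside. It was 14 without Tcf1-/- replicate 1, beside 9.56% of all genes. It was 5 without Tcf1-/- replicate 3 (9.98% of all genes) and 5 without Tcf1-/+ replicate 1 (9.32%). Without Tcf1-/+ replicate 2 it was 8 (9.26%), and without Tcf1-/+ replicate 3 it was 4 (8.51%). The count of wholly higher members was 4 without Tcf1-/+ replicate 3, beside 12.2% of all genes.

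In the probe sets used, all 7 MCM genes had lower Tcf1-/- means, with differences from -0.99 to -0.09, a median of -0.17 and overlap between the genotypes. Without Tcf1-/- replicate 2, 4 of the 7 had lower means. Mcm5, a subunit of the loaded ring, was at 11.79, 10.73 and 10.82 on Tcf1-/- replicates 1 to 3 and at 11.83, 10.28 and 11.75 on the Tcf1-/+ arrays. The lowest of these 6 values belonged to a Tcf1-/+ array, and the difference was -0.17 (SE 0.52). The other Mcm5 probe sets gave higher Tcf1-/- means, with differences of 0.45 (SE 0.24) and 0.62 (SE 0.42). Mcm3 was lowest on Tcf1-/- replicate 2 in the probe set used, at 10.81, 8.58 and 10.77 in Tcf1-/- and at 10.69, 11.02 and 11.40 in Tcf1-/+. The single value of 8.58 carried most of a difference of -0.99 (SE 0.65), which was -0.25 without it. The other Mcm3 probe sets differed by -1.01 to 0.03, and that array was not the lowest in all of them. Mcm4 and Mcm6 were among the best measured members in the probe sets used, with 95% intervals of -0.75 to 0.42 and -0.65 to 0.40. Mcm7 differed by -0.21 (SE 0.33). Mcm10, which helps to activate the helicase and is not part of the ring, ranged from 6.04 on Tcf1-/- replicate 2 to 8.96 on Tcf1-/- replicate 1, the lowest and the highest of its 6 values, and its difference was -0.84 (SE 0.74), or -0.14 without replicate 2. Mcm2 had a difference of -0.09 (SE 0.40) in the probe set used. A further Mcm2 probe set, chosen after its values were seen, was at 8.01, 7.49 and 7.71 in Tcf1-/- and at 8.57, 9.72 and 8.87 in Tcf1-/+. It did not overlap between genotypes and differed by -1.32 (SE 0.35), so the Mcm2 probe sets disagree in size.

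The promoters of these genes are known for E2F sites, and the letters of such sites were looked for in the 250 bases before each start in RefSeq's GRCm38.p6 annotation. The forms searched were TTTCCCGC, TTTGGCGC, TTTCGCGC and TTTGCCGC, on both strands. At least 1 form was found for 9 of the 43 members with a promoter entry (20.9%), against 2.16% of 27025 genes. These matches are a description of the sequence and no evidence of binding. The windows of Mcm6, Mcm5 and Rfc3 are shown because they hold such letters and lie outside every annotated gene; capitals mark the matches, and each stretch reads 5' to 3' towards the gene's start. They lie at chr1:128359710-128359850, minus strand, at chr8:75109321-75109402, plus strand, and at chr5:151651209-151651253, minus strand.
Mcm6: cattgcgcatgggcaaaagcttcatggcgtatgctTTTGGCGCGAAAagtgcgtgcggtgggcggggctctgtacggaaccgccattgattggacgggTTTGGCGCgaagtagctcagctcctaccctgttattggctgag
Mcm5: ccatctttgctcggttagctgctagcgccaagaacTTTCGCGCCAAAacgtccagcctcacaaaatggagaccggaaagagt
Rfc3: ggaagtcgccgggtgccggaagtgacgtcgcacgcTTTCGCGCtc
In Mcm6 the run of capitals farther from the start holds overlapping matches on both strands, and 3 matches were found in all, between 110 and 47 bases before the start. Mcm5 held 2 overlapping matches, the first 153 bases before the start, and Rfc3 held 1 at 10 bases. Orc1 and Cdc6 were also among the 9 genes, whereas no form was found for E2f2 or Cdc45 in these windows.

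Genes of origin licensing were mixed, with 4 lower and 2 higher Tcf1-/- means. Orc1, the largest subunit of the origin recognition complex, had the largest difference towards higher values of all members. It was at 8.36, 8.04 and 8.61 on the Tcf1-/- arrays and at 5.34, 8.03 and 7.08 on the Tcf1-/+ arrays. The genotypes did not overlap, by a margin of 8.04 against 8.03, and the difference was 1.52 with a 95% interval of -0.13 to 3.17. The other Orc1 probe set differed by -0.81 (SE 0.75), so the direction rests on the brighter one. Orc6, another subunit, was at 9.30, 7.96 and 7.04 in Tcf1-/- and at 8.81, 9.13 and 9.61 in Tcf1-/+. Replicate 1 of Tcf1-/- lay within the Tcf1-/+ range and the others lay under it, and the difference was -1.08 (SE 0.59) with an unadjusted limma p of 0.118. Orc2 differed by -0.52 (SE 0.37). Cdc6, which loads the helicase, was at 10.66, 7.90 and 8.22 in Tcf1-/- and at 8.08, 8.37 and 9.94 in Tcf1-/+. One array of each genotype stood high, and the difference was 0.13 (SE 0.87). Cdt1, the partner of Cdc6 in loading, differed by -0.23 with an interval of -0.97 to 0.51. Gmnn encodes geminin, the inhibitor of Cdt1, and differed by -0.41 (SE 0.33).

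Factors that fire the loaded origins showed no shared direction, with 3 lower and 2 higher means and a median of -0.02. Cdc45, a component of the active helicase, was at 7.74, 8.36 and 7.78 in Tcf1-/- and at 7.39, 7.70 and 7.48 in Tcf1-/+. The genotypes did not overlap, and the difference of 0.44 had an interval from -0.17 to 1.04; it was 0.23 without Tcf1-/- replicate 2. The second Cdc45 probe set gave -0.70 (SE 0.36), the opposite sign. The GINS subunits Gins1 and Gins2 differed by -0.42 (SE 0.31) and 0.12 (SE 0.53). Cdc7, the kinase that triggers firing, differed by -0.02 (SE 0.57), and Dbf4, its activating subunit, by -0.43 (SE 0.41).

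The sliding clamp had the smallest SE of any member, 0.21. Pcna was at 12.45, 12.30 and 12.72 in Tcf1-/- and at 12.43, 12.59 and 12.70 in Tcf1-/+. Its means were 12.49 ± 0.22 (SD, n = 3) and 12.58 ± 0.14 (SD, n = 3), and the 95% interval of the difference ran from -0.60 to 0.42. A change of 1 log2 unit in either direction lies outside that interval. In the probe sets used, intervals within 1 log2 unit of 0 were found for 6 members, Mcm4, Mcm6, Cdt1, Pcna, Rpa3 and Dut. The median half-width over the members was 1.09. For each of the remaining members a 2-fold difference in at least 1 direction lay inside the interval. Mcm4, Mcm6, Cdt1 and Dut each had another probe set with a larger SE, at 0.45, 0.57, 0.39 and 0.93.

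In the probe sets used, the subunits of the clamp loader had lower means in Tcf1-/- except for Rfc4. Rfc3 was at 9.28, 8.15 and 7.02 in Tcf1-/- and at 9.38, 8.97 and 9.93 in Tcf1-/+. Tcf1-/- replicate 1 lay within the Tcf1-/+ range, and replicates 2 and 3 lay under it. The difference of -1.28 (SE 0.60) was the largest towards lower values among the members, and it was also -1.28 without Tcf1-/- replicate 2, with an unadjusted limma p of 0.0779 over 6 arrays. The other Rfc3 probe set differed by 0.07 (SE 0.60). Rfc5 was at 8.90, 7.81 and 8.23 in Tcf1-/- and at 8.78, 8.84 and 9.52 in Tcf1-/+, again with replicate 1 inside the Tcf1-/+ range, and differed by -0.73 (SE 0.36), or -0.48 without replicate 2. Rfc1, the large subunit, differed by -0.47 (SE 0.41) and Rfc2 by -0.33 (SE 0.33), with all of their other probe sets of the same sign. Rfc4 differed by 0.02 (SE 0.71), and by -0.85 (SE 1.04) on its other probe set. Of the subunits of RPA, which coats single-stranded DNA, Rpa1 differed by 0.12 (SE 0.37), Rpa2 by -0.46 (SE 0.37) and Rpa3 by -0.21 (SE 0.24). The other Rpa2 probe set went the opposite way, at 1.31 (SE 0.83).

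**Figure D2:**
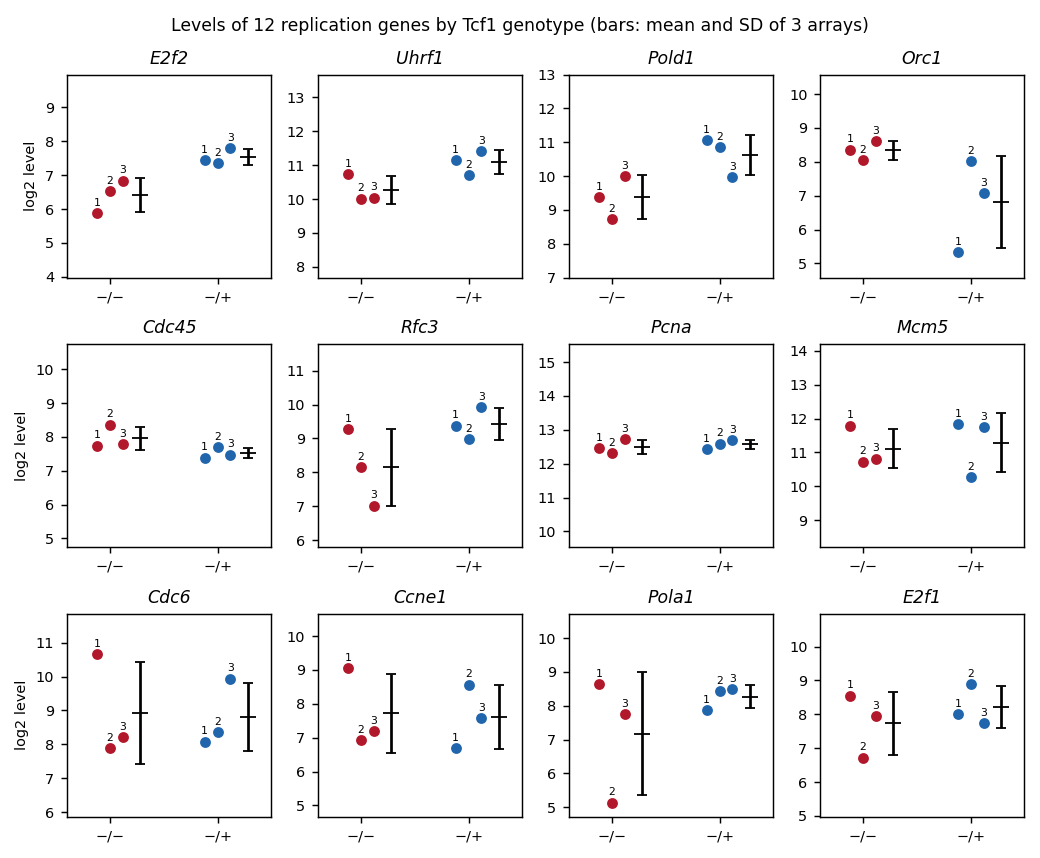
Log2 levels of 12 replication genes on the 3 Tcf1-/- arrays (red) and the 3 Tcf1-/+ arrays (blue), numbered by replicate, with the mean and SD of each genotype in black and the same height of scale in each panel. E2f2, Orc1 and Cdc45 do not overlap between genotypes, Pcna is nearly level at 12.30 to 12.72, and Pola1 is at 5.14 on Tcf1-/- replicate 2.

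Among the polymerases and primase, 6 of 8 genes had lower Tcf1-/- means, with a median of -0.68. Without Tcf1-/- replicate 2 these were 4 of 8 and -0.01. Pold1, the catalytic subunit of polymerase delta, was at 9.39, 8.72 and 10.01 in Tcf1-/- and at 11.07, 10.85 and 9.96 in Tcf1-/+. Only the highest Tcf1-/- value and the lowest Tcf1-/+ value crossed, by 10.01 against 9.96. The difference was -1.25 with a 95% interval of -2.34 to -0.16, an unadjusted limma p of 0.0304 and an adjusted p of 0.724. It was -0.92 without Tcf1-/- replicate 2, and the second Pold1 probe set gave -0.42 (SE 0.28). Pold2, the second subunit, was at 7.03, 5.16 and 6.81 in Tcf1-/- and at 7.47, 7.95 and 6.63 in Tcf1-/+. Its value on Tcf1-/- replicate 2 was under background, and the difference was -1.02 (SE 0.60), or -0.43 without that array.

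Pola1, the catalytic subunit of the polymerase that extends primers, was at 8.63, 5.14 and 7.75 in Tcf1-/- and at 7.88, 8.43 and 8.50 in Tcf1-/+. The highest and the lowest values were both from Tcf1-/- arrays, and the lowest was under background. A difference of -1.10 (SE 0.88) over all arrays was -0.08 without replicate 2. The accessory subunit Pola2 had its lowest value, 6.78, on Tcf1-/- replicate 1 instead, and differed by -0.43 (SE 0.53). Its other probe sets differed by 0.60 (SE 0.67) and -0.22 (SE 0.37). The primase subunits Prim1 and Prim2 differed by 0.40 (SE 0.37) and -0.93 (SE 1.27). The other Prim1 probe set differed by -0.24 (SE 0.24), and those of Prim2 by 0.22 (SE 0.75) and -0.63 (SE 0.36). Prim2 had the largest SE of any member and an SD of 1.72 within Tcf1-/- and 2.04 within Tcf1-/+, and was low on replicate 2 of both genotypes, at 5.12 and 5.70. Pole and Pole2, of polymerase epsilon on the leading strand, differed by 0.03 (SE 0.47) and -0.16 (SE 0.35).

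Genes of Okazaki fragment maturation overlapped between genotypes. Fen1, the nuclease that trims flaps between fragments, was at 12.63, 11.38 and 12.35 in Tcf1-/- and at 12.84, 11.47 and 12.81 in Tcf1-/+. It was lowest on replicate 2 of each genotype, as Prim2 was, and differed by -0.25 (SE 0.51), or 0.12 without Tcf1-/- replicate 2. Lig1, the ligase that seals the fragments, was at 10.19, 7.98 and 9.57 in Tcf1-/- and at 10.41, 9.84 and 10.03 in Tcf1-/+. Replicate 2 alone was far from the rest, and the difference of -0.85 (SE 0.58) was -0.22 without it.

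Enzymes of nucleotide supply had 3 lower and 2 higher means. Rrm2, the S-phase subunit of ribonucleotide reductase, was at 11.97, 10.86 and 11.98 in Tcf1-/- and at 12.12, 11.43 and 11.75 in Tcf1-/+, a difference of -0.16 (SE 0.38), or 0.21 without Tcf1-/- replicate 2. Rrm1, the large subunit, differed by 0.30 (SE 0.54). Tyms, which makes thymidylate, was at 7.62, 5.98 and 7.62 in Tcf1-/- and at 8.0, 8.23 and 7.53 in Tcf1-/+. The other Tyms probe sets differed by -0.38 to 1.19, and the mean of all Tyms probe sets by -0.04. In the probe set used Tcf1-/- replicate 2 was lowest, and the difference was -0.85 (SE 0.50), or -0.30 without it. Tk1, the thymidine kinase of the salvage route, went the other way and was highest on that array, at 8.83, with a difference of 0.33 (SE 0.45). Dut, which removes dUTP, differed by -0.26, with an interval of -1.0 to 0.48.

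The regulators of the G1 to S transition held both the member of smallest p and some of the most variable ones. E2f2, an activator of the E2F family, was at 5.87, 6.53 and 6.84 in Tcf1-/- and at 7.45, 7.36 and 7.79 in Tcf1-/+. The genotypes were separate, with 6.84 as the highest Tcf1-/- value and 7.36 as the lowest Tcf1-/+ value. Its means were 6.41 ± 0.50 (SD, n = 3) and 7.54 ± 0.22 (SD, n = 3), and the difference of -1.12 had an interval of -1.88 to -0.37, an unadjusted limma p of 0.0107 and an adjusted p of 0.605. Tcf1-/- replicate 2 was not the lowest array for E2f2, and the difference was -1.18 without it. A second, dimmer E2f2 probe set gave -0.61 (SE 0.29), of the same sign, with overlap. E2f1, the other activator among the members, was at 8.55, 6.72 and 7.94 in Tcf1-/- and at 8.0, 8.90 and 7.74 in Tcf1-/+. These ranges overlapped, and the difference of -0.48 (SE 0.55) was 0.03 without replicate 2. E2f8, an atypical family member that represses E2F targets, differed by 0.11 (SE 0.68) on its brighter and by -1.33 (SE 0.73) on its other probe set.

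In the probe sets used, cyclin E and its kinase were highest on Tcf1-/- replicate 1. Ccne1 was at 9.05, 6.92 and 7.19 in Tcf1-/- and at 6.69, 8.57 and 7.57 in Tcf1-/+, a difference of 0.11 (SE 0.72). The other Ccne1 probe set was highest on Tcf1-/+ replicate 3, at 8.56, and differed by -0.85 (SE 0.47). Ccne2 was at 8.11, 4.62 and 4.83 in Tcf1-/- and at 5.28, 6.30 and 5.42 in Tcf1-/+. The first value stood out and the next pair lay under background. Cdk2, the kinase that both cyclins activate, was at 9.03, 6.41 and 6.28 in Tcf1-/- and at 7.25, 6.94 and 8.35 in Tcf1-/+. Cdc6 was likewise highest on Tcf1-/- replicate 1, at the 10.66 given above. For these 4 genes the SD within Tcf1-/- was 1.16, 1.96, 1.55 and 1.51 in the probe sets used, against a median of 0.61 over the members. None of their differences in those probe sets exceeded its SE.

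Uhrf1, which brings the maintenance DNA methyltransferase to newly copied DNA, was at 10.74, 10.01 and 10.04 in Tcf1-/- and at 11.14, 10.71 and 11.42 in Tcf1-/+. Only the highest Tcf1-/- array and the lowest Tcf1-/+ array crossed, by 10.74 against 10.71. The difference was -0.82 with an interval of -1.58 to -0.07, an unadjusted limma p of 0.0364 and an adjusted p of 0.742, and it was -0.70 without Tcf1-/- replicate 2. The second Uhrf1 probe set gave -0.50 (SE 0.32). Chaf1b, a subunit of the chromatin assembly factor that places histones behind the fork, differed by -0.36 (SE 0.26).

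**Figure D3:**
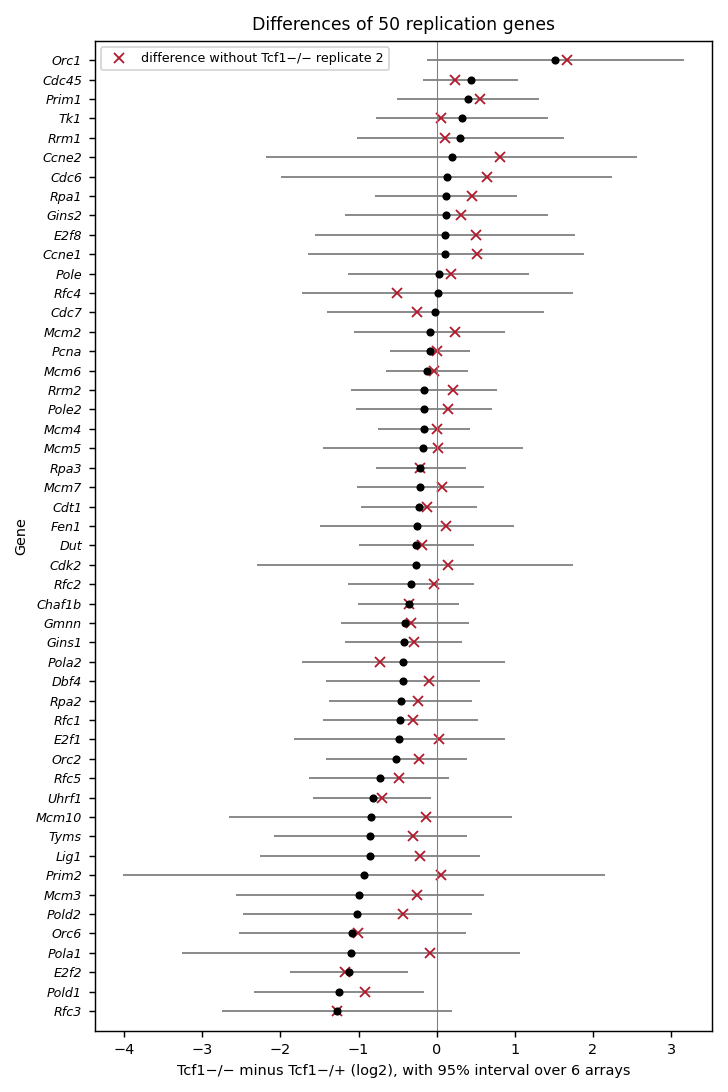
Difference between Tcf1-/- and Tcf1-/+ for each of the 50 replication genes on the log2 scale (black points), with limma's 95% interval over the 6 arrays (grey lines) and the difference without Tcf1-/- replicate 2 (red crosses). The intervals of 47 genes hold 0, and E2f2, Pold1 and Uhrf1 are the others.

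Probe sets of 1 gene did not always agree in direction. The members had 108 probe sets in all, and 39 members had more than 1. Of the 58 probe sets not chosen, 34 had the sign of the chosen one and 24 the opposite sign, over 21 members. E2f2, Pold1 and Uhrf1 had the same sign on every probe set, whereas Orc1 and Cdc45 did not. When all probe sets of a gene were averaged, 3 members were wholly lower, beside 5.3% of all genes, and 0 wholly higher, beside 7.27%.

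Other genes of the replication programme, in lists written with earlier results of these data known, also passed no test, and most had lower means in Tcf1-/-. Of other replisome and licensing genes 15 of 23 had lower means, with a median difference of -0.14. Without Tcf1-/- replicate 2 these were 11 of 23 and 0.03. Those of smallest unadjusted p were Pole3, a small subunit of polymerase epsilon, at -1.89 (SE 0.60), Mcmbp, which binds free MCM proteins, at -0.71 (SE 0.22), and Wdhd1, which couples polymerase alpha to the helicase, at -2.06 (SE 0.74). Wdhd1 was under background on Tcf1-/- replicate 2, at 4.89, and its difference was -1.29 without it. Each of these 3 genes, taken for their small p, was lower on all 3 Tcf1-/- arrays than on every Tcf1-/+ array. That order held for 4 of 23 genes in the list, beside 4.94% of all genes. Pole3 was at 6.54, 7.85 and 6.89 in Tcf1-/- and at 7.94, 9.04 and 9.95 in Tcf1-/+. Of the fork protection and checkpoint genes 14 of 20 had lower means with a median of -0.30, and 10 of 20 with a median of -0.02 without that array. The checkpoint kinase gene Atr differed by -1.43 (SE 0.63), with a value under background on Tcf1-/- replicate 2, 4.99, and by -0.73 without it. Dscc1 and Chtf18, which encode parts of an alternative clamp loader, differed by -0.95 (SE 0.46) and 0.85 (SE 0.33). Of the nucleotide metabolism genes 17 of 19 had lower means with a median of -0.50, and 13 of 19 with a median of -0.21 without that array. Shmt2, a mitochondrial enzyme of one-carbon metabolism, differed by -0.94 (SE 0.30) and was the 1 wholly lower gene of these 19. Dck differed by -0.84 (SE 0.47) and Rrm2b by -0.91 (SE 0.50), although the other 3 probe sets of Rrm2b gave higher values. Histone supply and chromatin duplication genes had lower means for 10 of 14 with a median of -0.11, and for 7 of 14 with a median of 0.01 without that array. Those of smallest p were Asf1a at 0.34 (SE 0.19), Hells at 0.80 (SE 0.47) and Slbp at -0.47 (SE 0.28). Each of these 3 genes had at least 1 probe set of the opposite sign.

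In the list of other E2F and G1 to S regulators 19 of 24 had lower means with a median of -0.17, and 14 of 24 with a median of -0.07 without Tcf1-/- replicate 2. In this list the relatives of the retinoblastoma protein went opposite ways. Rbl2, which encodes p130 and acts mainly in resting cells, was at 9.41, 10.21 and 9.22 in Tcf1-/- and at 8.29, 8.44 and 8.41 in Tcf1-/+. All 3 Tcf1-/- arrays were higher, with a difference of 1.23 (SE 0.30), an unadjusted limma p of 0.00636 and an adjusted p of 0.538. Rbl1, which encodes p107 and is itself an E2F target, was at 7.70, 7.03 and 8.24 in Tcf1-/- and at 8.61, 8.97 and 8.87 in Tcf1-/+. It lay wholly lower, with a difference of -1.16 (SE 0.34), and 3 of its 4 probe sets gave a lower mean. In the list 2 of 24 genes lay wholly lower and 1 wholly higher, beside 4.94% and 7.22% of all genes. Lin54, a DNA-binding subunit of the complex that p130 and p107 join, had a difference of -1.57 (SE 0.50), and its second probe set gave a higher mean.

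Mitosis genes had a lower median difference than the replication genes, and the contrast between these lists was not tested. Lower means were found for 22 of 23, with a median of -0.74, and for 18 of 23 with a median of -0.56 without Tcf1-/- replicate 2, where the replication median was -0.06. Plk1, a mitotic kinase, was at 6.54, 6.44 and 6.46 in Tcf1-/- and at 7.66, 7.48 and 7.75 in Tcf1-/+. Its difference of -1.15 (SE 0.18) had an adjusted limma p of 0.407. Top2a, which untangles copied chromosomes, had a difference of -1.18 (SE 0.33), higher in 1 of its other probe sets, and Cenpa, the centromeric histone, one of -1.61 (SE 0.59). The median of the mitosis list by array was 0.11, -1.11 and -0.36 in Tcf1-/- and 0.36, 0.03 and 0.79 in Tcf1-/+, so the genotypes overlapped for it as well.

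**Figure D4:**
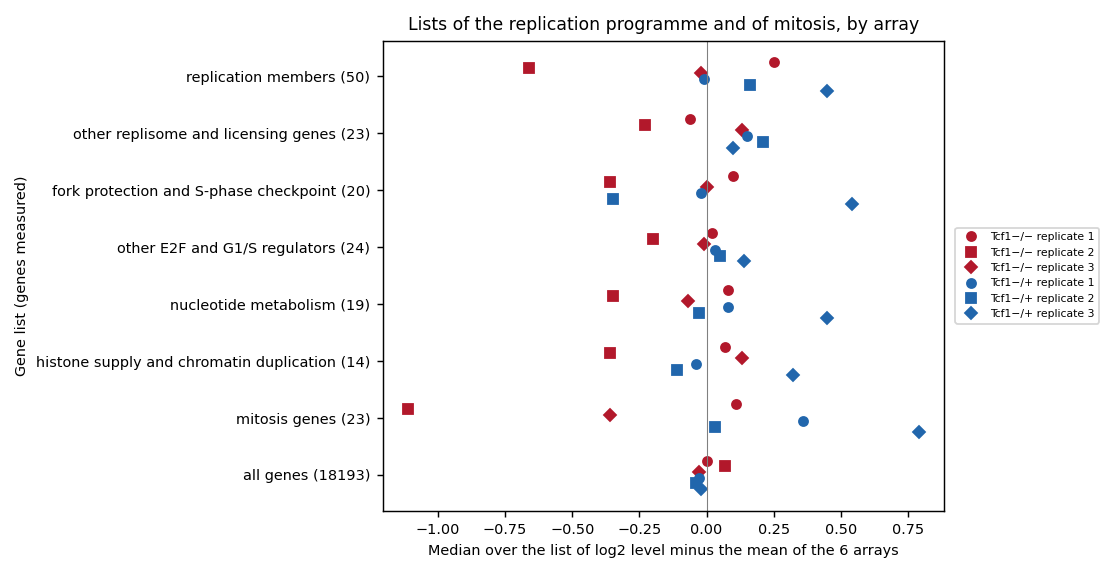
Median over each gene list of the log2 level minus that gene's mean over the 6 arrays, for each Tcf1-/- array (red) and each Tcf1-/+ array (blue), with all 18193 genes for comparison. Tcf1-/- replicate 2 is the lowest array in each list shown but the whole set of genes, where it is at 0.07, and it reaches -0.66 for the replication genes and -1.11 for the mitosis genes.

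Markers of other cells also differed between these arrays. The log2 of the summed level of 13 measured NK and innate lymphoid markers ran from 12.95 to 14.37 in Tcf1-/- and from 10.84 to 11.92 in Tcf1-/+, and was highest on Tcf1-/- replicate 2, the array lowest for the replication genes. Of these markers 8 were above background on every array. Means were higher in Tcf1-/- for 10 and lower for 3, where 45.7% of all genes had a lower mean. Id2, Gzmb, Icos, Il18r1 and Cxcr6, 5 of the 13, were wholly higher in Tcf1-/-, beside 7.22% of all genes. Klrd1 was wholly lower, beside 4.94%. Tbx21 and Ncr1, genes of mature NK cells, had both means under background. The 10 measured erythroid markers summed to 11.34 to 13.09 in Tcf1-/- and 11.29 to 12.94 in Tcf1-/+. Of these 2, Car2 and Tfrc, were above background on every array, at 9.66 to 11.46 and 10.12 to 11.49, and weighed heavily in the sums. The erythroid sums were highest on Tcf1-/- replicate 1 and Tcf1-/+ replicate 3, which also had the highest medians of the replication genes. Means were higher in Tcf1-/- for 7 of the 10 and lower for 3. Car1 was at 10.97, 7.85 and 9.42 in Tcf1-/- and at 4.12, 4.66 and 9.24 in Tcf1-/+. Klf1 was above background on all 3 Tcf1-/- arrays and on Tcf1-/+ replicate 3. Hba-a1, a globin gene, was under background on all arrays. The sums of 12 myeloid markers, 5 of them above background throughout, ran from 12.83 to 14 and from 12.91 to 14.41. Mpo, at 12.37 to 13.84 with a difference of -0.07 (SE 0.45), made up most of them. Means were higher in Tcf1-/- for 9 of the 12 and lower for 3. S100a8 differed by 2.64 (SE 1.14) and Csf1r by -1.63 (SE 1.19). The sums of 8 B-lineage markers ran from 8.66 to 9.55 and from 8.62 to 9.53. The part of any of these cells in the levels of the replication genes was not tested. In sorted bulk samples, fewer cycling cells and less RNA per cycling cell cannot be told apart.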

How the data were processed

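The 6 arrays were grouped by the genotype in their titles. The deposited log2 values per probe set were used as the authors made them; their summarization and normalization are not given in these sources. That they are log2 was taken from their range, 2.15 to 14.4. The 64 control probe sets were not tested. Of the 45037 others, 34945 had 1 symbol in the platform annotation, 932 several and 9160 none here. Columns of values not used numbered 0.

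Limma 3.58.1 (R 4.3.3; lmFit, then eBayes) gave two-sided tests of genotype over all probe sets, with no covariates, Benjamini-Hochberg adjustment and a threshold of 0.05. The fit was checked on simulated data. An exact permutation test was not used, since its smallest p with 3 arrays a group is 0.1. Arrays have no read depth, and their number limits the precision. The members, lists, tests and alternatives were chosen with earlier results of these data known.

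Members were named with their role. Arrays were given one by one for members that did not overlap, the 12 of smallest unadjusted p and 10 chosen by role. From each of the 6 other lists of the programme, up to 3 genes of smallest unadjusted p above background were named. Others named are said to be chosen after their values were seen, apart from Ccne2, Cdk2 and the single markers of other cells. Ccne2 and Cdk2 were given in full after their values were seen, and those markers were named with theirs known. Some array values of Mcm10, Pola2, Prim2 and Tk1 were also given outside this rule, with their values known. Alternatives were a replicate block, quantile normalization, a common array median, the mean of all probe sets of a gene, a filter on mean level, a floor at background, array weights, a covariate for the Y-linked level, and leaving out each array.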

Additional observations from a re-analysis of the deposited data

How the results depend on the processing

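Limma called 0 members and 0 probe sets under every alternative run, and the lowest adjusted p of a member over them was 0.459. The number of members with a lower Tcf1-/- mean lay between 28 and 43, and their median difference between -0.46 and -0.06. The main fit used no pairing by replicate number. Same-numbered arrays of the genotypes had deviations that correlated at 0.03, 0.04 and 0.01. No other pairs of arrays were taken for reference, so these values do not settle whether the arrays were paired. With the replicate number as a block the counts were 37 lower members and 0 called, and the lowest array weight was 0.53, for Tcf1-/- replicate 2. Wholly lower members numbered 1 to 14 and wholly higher ones 2 to 4 when single arrays were left out, where fewer arrays make separation easier. With the mean of all probe sets of a gene these counts were 3 (5.3% of all genes) and 0 (7.27%). The share of members with an E2F form was 14% with TTTCCCGC and TTTGGCGC alone, against 1.51% of all genes. The filter on mean level removed 1 member.

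No alternative used another probe set alone, which for Orc1 and Rfc3 gave the opposite sign, at -0.81 and 0.07. The sign held under all alternatives for 27 members, among them E2f2 (-1.34 to -0.85), Uhrf1 (-1.06 to -0.62), Pold1 (-1.58 to -0.84), Rfc3 (-1.84 to -0.60) and Orc1 (0.36 to 2.13). It turned for 21 members when single arrays were left out, with differences that ran as follows: Ccne1 -0.55 to 0.59, Ccne2 -0.94 to 0.81, Cdc6 -0.74 to 0.70, Cdc7 -0.53 to 0.39, Cdk2 -1.17 to 0.21, E2f1 -0.89 to 0.03, E2f8 -0.47 to 0.69, Fen1 -0.70 to 0.12, Gins2 -0.43 to 0.59, Mcm2 -0.46 to 0.23, Mcm5 -0.68 to 0.10, Mcm7 -0.43 to 0.07, Pcna -0.20 to 0.01, Pola2 -0.73 to 0.17, Pole -0.24 to 0.54, Pole2 -0.46 to 0.14, Prim2 -2.10 to 0.06, Rfc4 -0.51 to 0.73, Rpa1 -0.13 to 0.45, Rrm1 -0.24 to 0.68 and Rrm2 -0.35 to 0.21. With the mean of all probe sets it turned for Mcm5 (0.30), Cdc45 (-0.13), Gins2 (-0.05), Rfc4 (-0.41), Rpa2 (0.42), Rrm1 (-0.19), Ccne1 (-0.37), E2f8 (-0.61), Rrm2b (0.63), Hells (-0.29) and Slbp (0.37). With the Y-linked covariate it turned for Mcm2 (0.16), Mcm5 (0.25), Rfc4 (-0.14), Fen1 (0.11), Rrm2 (0.01) and Cdk2 (0.24), with array weights for Mcm2 (0.04) and Rfc4 (-0.17), and with quantile normalization for Cdc7 (0.01). The cause was not tested for any of these.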
